A study of Homo sapiens with 8 samples.

Results

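Chromatin accessibility was compared between 2 gain-of-function (GOF) lines of HEK293T, a human embryonic kidney cell line, one carrying EZH2 Y641F and the other EZH2 A677G. Each line had 2 ATAC-seq libraries, an assay in which the Tn5 transposase cuts open chromatin and the cut fragments are sequenced. The peaks of these 4 libraries on chromosomes 1 to 22 were merged wherever they overlapped, which gave 60865 regions of the 98302 obtained when all 8 libraries of the series are merged. A Y641F-only region had a peak in both Y641F libraries and in neither A677G library, and an A677G-only region had the reverse. There were 495 Y641F-only regions (0.813% of the merged regions) and 3926 A677G-only regions (6.45%). The classes were defined a second time with equally long lists, taking from each library the 26350 peaks with the highest −log10 p on chromosomes 1 to 22 and X, called top peaks here. A region without a called peak may still carry signal, and in bulk cells a region open in fewer cells and one less open in each cell cannot be told apart. With top peaks there were 1008 Y641F-only regions (2.55% of 39510 merged regions) and 1569 A677G-only regions (3.97%).

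Both mutants were expressed from a lentiviral construct in cells that keep their own EZH2, and both lines went through blasticidin selection that the study describes as giving monoclonal populations. A line may therefore be 1 clone, and a difference between the 2 lines cannot be told apart from a difference between clones. The other lines of the series, EZH2 WT and the loss-of-function (LOF) double mutant EZH2 H689A/F667I, were made in the same way with 2 libraries each. They took no part in the definition of the classes and are used below as outside readouts.

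EZH2 is the catalytic subunit of Polycomb repressive complex 2 (PRC2), which methylates lysine 27 of histone H3 and is known for keeping developmental genes silent. Y641F and A677G both lie in the catalytic SET domain and are known from lymphomas, where they change the preference of the enzyme among unmethylated, mono- and dimethylated lysine and raise trimethylation. Chromatin with this mark tends to be compact, while open chromatin is found at active promoters, enhancers and sites bound by insulator proteins.

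The sequences of 3 regions are shown first because they ranked highest among the intronic or intergenic regions of their class. The rank is by −log10 p within each peak list, in the weaker of the 2 libraries of the line, and not by fold. All are read on the plus strand of GRCh38. Regions longer than 300 bp are shown by their central 300 bases. Capitals mark matches on either strand to 13 short motifs, described with the motif counts further on. The first 2 are Y641F-only regions, in introns of CDC14A (chr1:100354990-100355220), a phosphatase of the cell cycle, and of ADAMTSL1 (chr9:18791140-18791351), a secreted matrix protein. The last is the highest ranked A677G-only region, between genes and nearest to SCAMP4 (chr19:1897711-1898010), a membrane protein of the secretory pathway.
CDC14A intron, Y641F-only: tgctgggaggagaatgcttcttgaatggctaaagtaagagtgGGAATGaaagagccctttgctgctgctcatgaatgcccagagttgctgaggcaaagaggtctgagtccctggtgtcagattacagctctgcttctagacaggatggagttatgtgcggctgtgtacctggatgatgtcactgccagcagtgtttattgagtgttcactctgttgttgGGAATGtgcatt
ADAMTSL1 intron, Y641F-only: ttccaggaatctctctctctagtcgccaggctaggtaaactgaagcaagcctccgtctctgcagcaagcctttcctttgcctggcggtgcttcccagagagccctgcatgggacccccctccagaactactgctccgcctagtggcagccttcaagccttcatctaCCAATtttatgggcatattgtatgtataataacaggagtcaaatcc
near SCAMP4, A677G-only: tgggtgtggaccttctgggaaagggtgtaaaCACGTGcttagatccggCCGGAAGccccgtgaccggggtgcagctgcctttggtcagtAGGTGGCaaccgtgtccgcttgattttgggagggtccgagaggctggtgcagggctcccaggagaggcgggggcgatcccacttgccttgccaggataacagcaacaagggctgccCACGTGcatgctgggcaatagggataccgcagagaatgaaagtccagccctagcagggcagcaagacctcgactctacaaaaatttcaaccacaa
The CDC14A sequence was 48.5% GC and held 1 CpG and 2 matches to the TEAD letters GGAATG. The ADAMTSL1 sequence was 51.9% GC with 4 CpG and 1 CCAAT. The sequence near SCAMP4 was 58.7% GC with 13 CpG, 2 E-box letters CACGTG, 1 ETS match and 1 match to the CTCF core.

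On chromosomes 1 to 22 the Y641F libraries had 25423 and 35380 peaks, and the A677G libraries had 36744 and 44754. Both Y641F libraries lay below both A677G libraries. Mean peak number was 30402 ± 7041 (SD, n = 2) in Y641F and 40749 ± 5664 (SD, n = 2) in A677G, a log2 ratio of -0.44 (two-sided exact permutation over libraries, p = 0.333). Covered length was 18.1 ± 4.96 Mb (SD, n = 2) and 23.9 ± 3.08 Mb (SD, n = 2), a log2 ratio of -0.42 (exact permutation, p = 0.333). With 2 libraries a line no lower p could be reached, and p measures only the spread between these libraries. WT libraries had 62739 and 60420 peaks and H689A/F667I libraries 46317 and 47164. Read depth is unknown, since the files hold peaks and no read counts, so a line with fewer peaks and a library with less sequencing cannot be told apart. Of 8 marker genes of HEK293T, all had a promoter peak in at least 7 of 8 libraries, and KRT18 had none in Y641F replicate 1. Among markers of other cell types, ALB of liver, CD3E and PTPRC of blood and TYR of melanocytes had no promoter peak in any library, and MYOD1 of muscle had one in 8 of 8.

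The A677G-only class was the larger by 3926 to 495 with all peaks and by 1569 to 1008 with top peaks. Most regions fell in neither class. With all peaks 18568 regions were open in all 4 libraries, and 11332 were open in A677G replicate 2 alone. Regions open in 1 library of each line numbered 286 for Y641F replicate 1 with A677G replicate 1, 630 for Y641F replicate 1 with A677G replicate 2, 1035 for Y641F replicate 2 with A677G replicate 1 and 2390 for both second replicates. The 495 Y641F-only regions lay inside the range of these mixed pairs, while the 3926 A677G-only regions lay above it. With top peaks the mixed pairs gave 552, 589, 989 and 1042 regions, so that the 1008 Y641F-only regions again lay inside that range and the 1569 A677G-only regions above it. Leaving out a library made the rule unequal, since its line then needed a peak in 1 library and the other line in 2. Without Y641F replicate 1 there were 6172 Y641F-only and 4741 A677G-only regions, so the order turned under this unequal rule. Without any of the other 3 libraries A677G-only regions were the more numerous. With 1 library of each line and all peaks A677G-only regions were the more numerous in every pair. With Y641F replicate 2 they numbered 10827 against 9488 for A677G replicate 1, and 16866 against 7626 for A677G replicate 2. With top peaks the pair of second replicates gave 5804 A677G-only and 5848 Y641F-only regions.

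**Figure D1:**
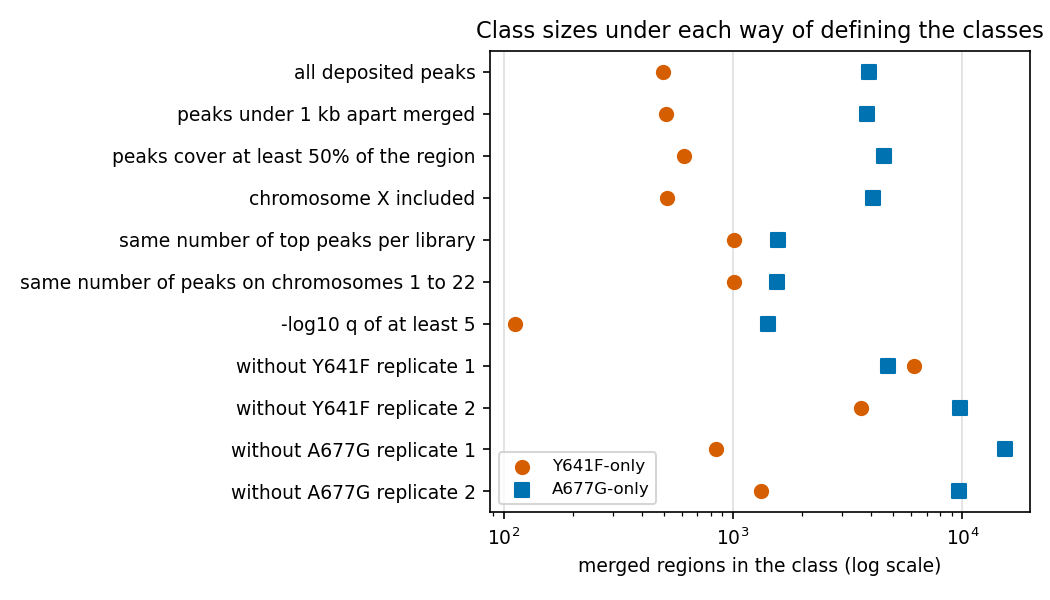
Number of merged regions in each class (horizontal axis, log scale) for each way of defining the classes (rows), with circles for Y641F-only and squares for A677G-only. The A677G-only class is the larger in every row except the one without Y641F replicate 1, where 6172 Y641F-only regions stand against 4741, and equal list lengths bring 1008 and 1569 regions where all peaks give 495 and 3926.

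Equal peak numbers do not mean equal signal. The 26350 peaks were the whole list of Y641F replicate 1, down to a −log10 p of 3.31, but the lowest admitted −log10 p was 4.66 in Y641F replicate 2, 4.78 in A677G replicate 1 and 5.31 in A677G replicate 2. Of the 1008 Y641F-only regions of the top peaks, 467 (46.3%) had a weaker peak in both A677G libraries, 339 (33.6%) in 1 of them and 202 in neither. Of the 1569 A677G-only regions, 482 (30.7%) had a weaker peak in Y641F replicate 2 and 1087 (69.3%) had none. None had one in both Y641F libraries, because the list of Y641F replicate 1 was used whole. The regions of a class in both settings were thus 202 for Y641F, 40.8% of its 495, and 1087 for A677G, 27.7% of its 3926.

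The class regions were shorter and weaker than the regions open in all 4 libraries. Median width was 522 bp for Y641F-only and 454 bp for A677G-only regions, against 985 bp for regions open in all 4 libraries and 507 bp for all merged regions. Median fold, the ratio of pileup to background that the authors obtained from MACS2, was 3.26 and 3.29 in the Y641F libraries for Y641F-only regions and 3.49 and 3.44 in the A677G libraries for A677G-only regions. Regions open in all 4 libraries had median folds of 3.89 to 4.21. Ranked within each list by −log10 p, the median Y641F-only peak stood at percentile 21.9 and 23.4 and the median A677G-only peak at 30.8 and 37.4. In 28 Y641F-only regions (5.66%) and 461 A677G-only regions (11.7%) the peak was above percentile 50 in both libraries. The highest values of the lower percentile in a class were 76.3 and 90.4.

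Y641F-only regions lay away from promoters more often than A677G-only regions when all peaks were used. A promoter, within 1 kb of a start site of a protein-coding gene, was hit by 46 Y641F-only regions (9.29%, Wilson 95% interval 7.04 to 12.2) and by 751 A677G-only regions (19.1%, 17.9 to 20.4). Regions open in all 4 libraries were at promoters in 57.9% and all merged regions in 27.1%, so both classes stood below the merged regions. Introns held 50.5% of the Y641F-only and 42.7% of the A677G-only regions, intergenic sequence 29.3% and 26.5%, and exons 10.9% and 11.6%. Median distance to the nearest start site was 21741 bp for Y641F-only and 12674 bp for A677G-only regions, and 33.7% and 22.3% lay over 50 kb away. The promoter difference was not seen with top peaks, where 221 Y641F-only (21.9%, 19.5 to 24.6) and 333 A677G-only regions (21.2%, 19.3 to 23.3) were at promoters. The distance difference remained with top peaks, with medians of 17768 bp and 9800 bp. All intervals cover counting error only, and regions of 1 genome are not replicates of a line.

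**Figure D2:**
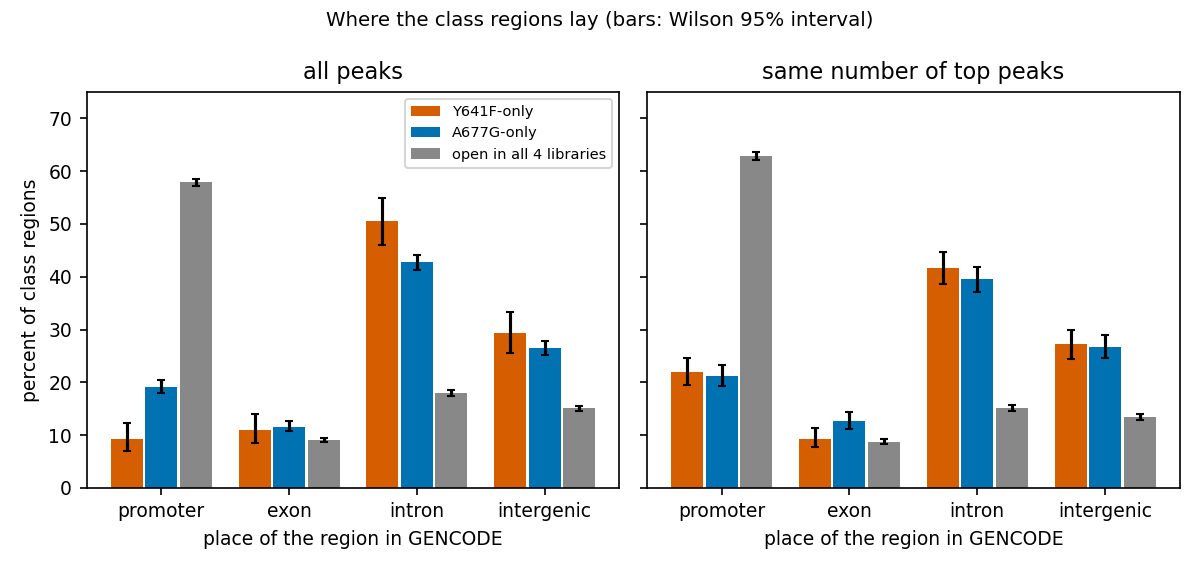
Share of class regions at promoters, exons, introns and intergenic sequence (vertical axis, percent) with all peaks (left) and top peaks (right), for Y641F-only, A677G-only and regions open in all 4 libraries, with Wilson 95% intervals. With all peaks promoters hold 9.29% of Y641F-only and 19.1% of A677G-only regions, with top peaks 21.9% and 21.2%, and in both panels far fewer than in regions open in all 4 libraries (57.9% and 62.9%).

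The sequence of the classes differed in base composition in both settings. Median GC content was 48.6% in Y641F-only, 52.5% in A677G-only and 59.4% in regions open in all 4 libraries, and with top peaks 49.4%, 53.6% and 60.1%. Within introns alone the medians were 47.0% and 49.1%, within intergenic regions 48.9% and 51.5%, and at promoters 54.4% and 65.4%. CpG-rich regions, with a CpG ratio of at least 0.6 and at least 50% GC, made up 19 (3.84%) of the Y641F-only and 606 (15.4%) of the A677G-only regions with all peaks. With top peaks they made up 17.5% and 17.6%, so this contrast, like that in promoters, was seen with all peaks only. In the individual libraries median GC of peaks was 58.3% and 56.1% in Y641F and 56.6% and 55.1% in A677G, so the lower GC belonged to the class and not to the Y641F lists as a whole.

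Matches to 13 motifs were counted on both strands of the central 300 bp of each region, as a description of letters and not of binding. The CTCF core AGGNGGC, from the site of the insulator protein CTCF, was found in 122 Y641F-only regions (24.6%, Wilson 21.1 to 28.6) and in 1479 A677G-only regions (37.7%, 36.2 to 39.2), against 34.7% of all merged regions. Outside promoters the shares were 23.8% and 35.2%, and with top peaks outside promoters 25.2% and 40.1%. The SP/KLF letters GGGCGGG were in 3.43% and 14.4% of the classes, with 15.7% of all merged regions. Outside promoters they were in 2.23% and 8.54%, and with top peaks in 5.21% and 9.95%. ETS (CCGGAAG) was in 0.606% and 2.85%, YY1 (AANATGGC) in 2.42% and 4.64%, and the E-box of MYC (CACGTG) in 2.83% and 5.65%, against 4.20%, 4.87% and 4.92% of all merged regions. With top peaks ETS was in 2.38% and 3.31%, with overlapping intervals, and for YY1 the order turned, at 5.56% and 4.65%. AP-1 (TGANTCA) was in 11.5% of Y641F-only and 11.6% of A677G-only regions, above the 9.43% of all merged regions. The AT-rich letters of GATA factors (AGATAA) were in 16.8% and 14.3%, and with top peaks in 16.9% and 12%, against 12.9% and 11.8% of all merged regions, and the intervals of the classes overlapped with all peaks. HOX (TAATTA) was in 5.86% and 5.37% and TEAD (GGAATG) in 18.8% and 16.0%, with intervals that overlapped between the classes. CCAAT, bound by NF-Y, was in 32.3% and 28.1%, and NRF1 (GCGCANGCG), CRE (TGACGTCA) and SMAD (GTCTAGAC) were each in at most 1.07% of either class with all peaks. The motifs with the larger gaps are rich in G and C, and the classes differed in GC content; the part of GC in these gaps was not tested.

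The outside lines separated the classes further. Of the A677G-only regions, 3152 (80.3%, Wilson 79.0 to 81.5) had a peak in both WT libraries, and of the Y641F-only regions 217 (43.8%, 39.5 to 48.2), against 65.0% of all merged regions. Most A677G-only regions were therefore open in WT as well and lacked a peak in Y641F, while a smaller share of Y641F-only regions were open in both WT libraries. In both H689A/F667I libraries 59.4% of A677G-only and 28.5% of Y641F-only regions were open, against 53.4% of all merged regions. No peak in any WT or H689A/F667I library was found for 117 Y641F-only (23.6%, 20.1 to 27.6) and 158 A677G-only regions (4.02%, 3.45 to 4.69), against 20.4% of all merged regions, a share inside the Y641F-only interval. With top peaks the shares open in both WT libraries were 17.0% and 42.2%, and those open in none of the 4 outside libraries 38.3% and 12.7%. Of all merged top-peak regions 50.5% were open in both WT libraries and 25.1% in none of the 4, so A677G-only regions lay above the merged share in WT with all peaks and below it with top peaks. Among the 202 and 1087 regions of a class in both settings, 113 (55.9%, 49.0 to 62.6) and 985 (90.6%, 88.7 to 92.2) were open in both WT libraries, and 31 (15.3%) and 8 (0.736%) in none of the 4.

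**Figure D3:**
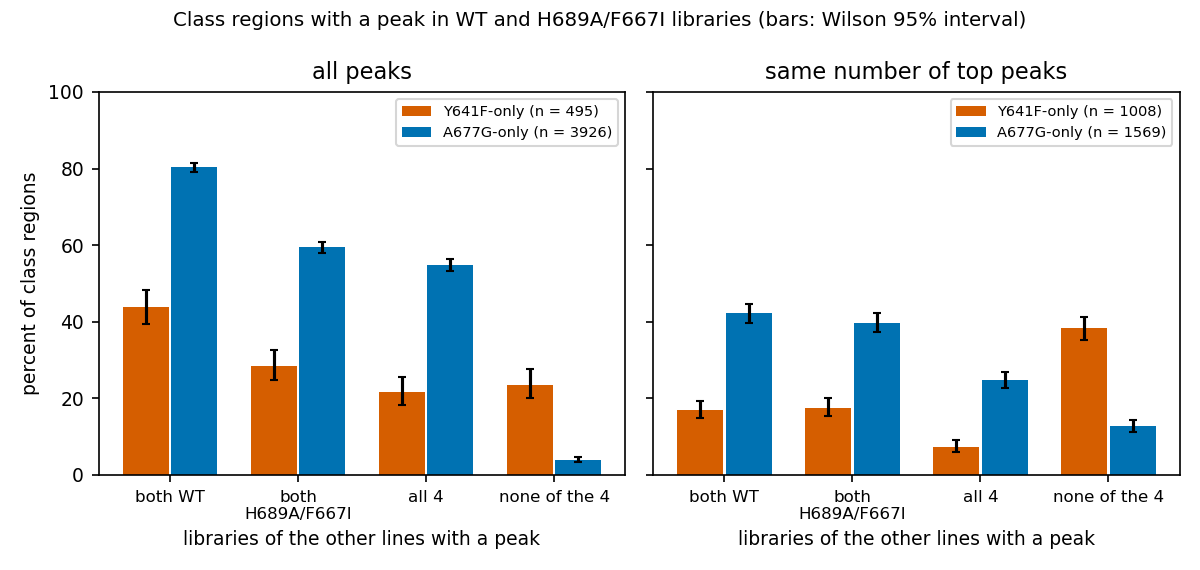
Share of Y641F-only and A677G-only regions (vertical axis, percent, Wilson 95% intervals) with a peak in both WT libraries, both H689A/F667I libraries, all 4 of them or none, with all peaks (left) and top peaks (right). A677G-only regions are open in both WT libraries at 80.3% and 42.2%, Y641F-only regions at 43.8% and 17.0%, and the order turns for regions open in none of the 4 (4.02% and 12.7% against 23.6% and 38.3%).

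The contrast in WT was also present within places and within ranges of peak strength. At promoters 52.2% of Y641F-only and 86.8% of A677G-only regions were open in both WT libraries, in introns 44% and 76.8%, and in intergenic sequence 40.7% and 81.2%. Where the lower percentile of the 2 peaks was at most 10, the shares were 33.2% of 196 Y641F-only regions and 60.8% of 826 A677G-only regions. Between 20 and 30 they were 55.3% of 85 and 86.0% of 713, and above 40 they were 66.7% of 54 and 91.2% of 906. In the 4 comparisons of 1 Y641F library with 1 A677G library, the share open in both WT libraries was 24.6% to 42.8% of regions open in the Y641F library alone and 50% to 67.7% of those open in the A677G library alone. With top peaks these ranges were 12.6% to 22.3% and 28.4% to 39.7%. When 1 A677G library was left out and the other alone defined A677G-only regions, 47.3% and 50.7% of them were open in both WT libraries, below the 59.1% and 69.6% of the Y641F-only regions, which still needed both Y641F libraries. The WT libraries had the longest peak lists of the series, and what part of these shares comes from list length was not tested.

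The 10 highest ranked Y641F-only promoter regions were those of UBE2E3, ADGRV1, RPL17 with its readthrough RPL17-C18orf32, TNKS, SF1, BCHE, TFPI, PTRHD1, TSC22D1 and NPTX1. Each call concerns 1 region, and a gene can have a peak in A677G elsewhere near a start site. Counted by gene, as further below, only RPL17, RPL17-C18orf32, BCHE and TFPI of these were Y641F-only. UBE2E3, a ubiquitin-conjugating enzyme, had folds of 4.44 and 4.38 in the Y641F libraries over chr2:180983836-180984062, 57 bp from the nearest start site. The A677G and H689A/F667I libraries had no peak there, and the WT libraries had folds of 3.94 and 3.66. ADGRV1, an adhesion receptor of the inner ear and retina, had folds of 4.78 and 4.43 over its region in Y641F. In the 4 WT and H689A/F667I libraries the folds there were 4.17 to 6.71. The region of TNKS, a poly-ADP-ribose polymerase that acts on telomeres and on axin, had 5.43 and 4.34 in Y641F and 4.77 to 6.21 in the outside libraries. The regions of BCHE, which encodes butyrylcholinesterase, and TFPI, the inhibitor of the tissue factor pathway of clotting, were likewise open in all 6 libraries other than A677G. TFPI had folds of 4.67 and 4.11 in Y641F. BCHE had 4.17 and 4.09.

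RPL17, a protein of the large ribosomal subunit, had folds of 4.79 and 3.65 in Y641F and 2.74 and 3.54 in WT, with no peak in H689A/F667I. Processed copies of ribosomal protein genes are frequent in the genome and how reads with several matches were handled is not stated, so its values are uncertain. SF1, a splicing factor that binds the branch point, had 3.70 and 3.32 in Y641F and a peak in 1 library of each outside line. Those peaks had folds of 5.00 in WT replicate 1 and 5.54 in H689A/F667I replicate 2, at percentiles 98.8 and 99.2. As the other replicate of each line had no peak there, the calls at SF1 are uncertain. PTRHD1 had 3.41 and 3.05 and was open in 3 of the 4 outside libraries. TSC22D1, a leucine zipper factor induced by TGF-beta, had 3.23 and 3.39 and was open in 1 of 4. NPTX1, a secreted neuronal pentraxin, had 2.63 and 3.26 over chr17:80475658-80476641. This was the 1 promoter region of the 10 that no peak of any other line overlapped. Counted by gene NPTX1 was not Y641F-only, since A677G had a peak elsewhere within 1 kb of a start site. Of these 10 promoters, 6 were open in both WT libraries and 5 in both H689A/F667I libraries. With top peaks the rule added BMP5, a bone morphogenetic protein with folds of 5.08 and 5.18 in Y641F and a weaker peak of 3.25 in A677G replicate 2, and STK31, a kinase of the germ line with 4.72 and 4.89 in Y641F and 3.47 in A677G replicate 1.

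**Figure D4:**
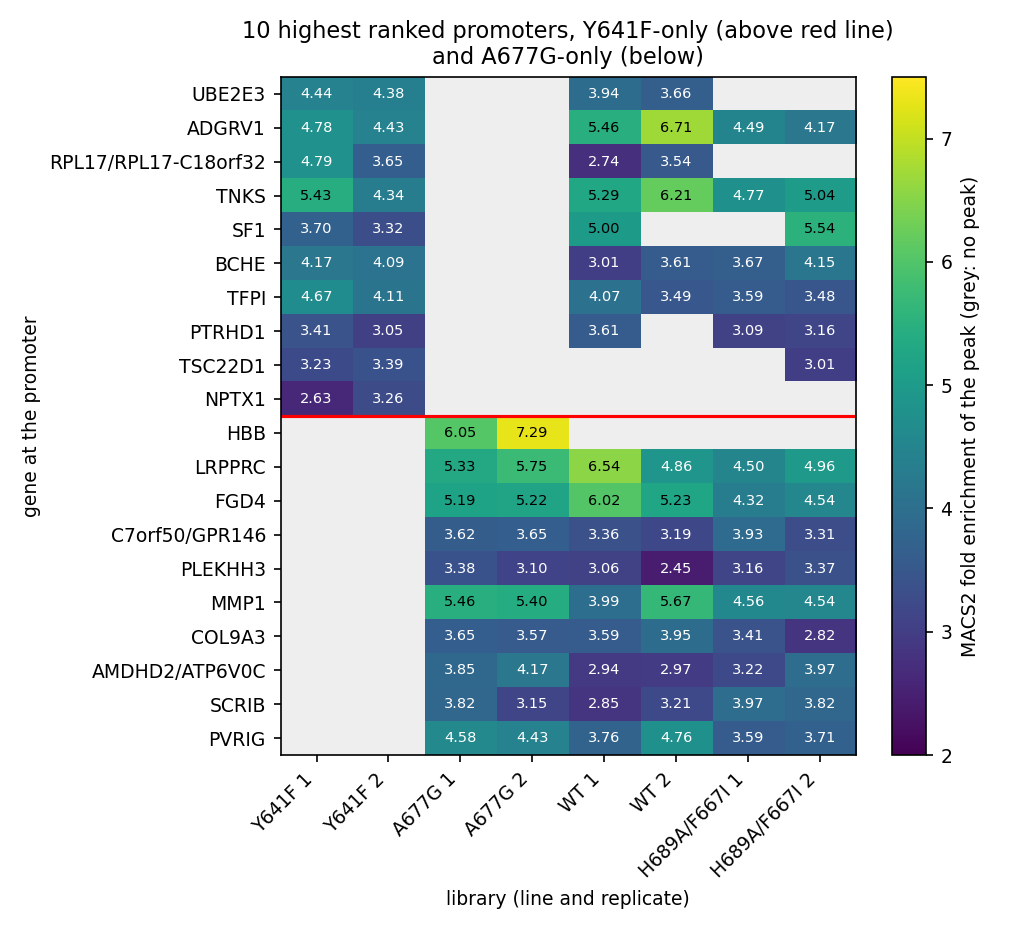
Fold of the peak (colour and number) over the 10 highest ranked promoter regions of each class (rows, named by gene) in each of the 8 libraries (columns). Y641F-only regions are above the red line and A677G-only regions below, with grey where no peak was called. Rows of A677G-only promoters are filled in WT and H689A/F667I except HBB, which has peaks of 6.05 and 7.29 in A677G and none elsewhere. Of the 10 Y641F-only rows, 4 (ADGRV1, TNKS, BCHE and TFPI) are filled in all 4 outside libraries. Over the region plotted for NPTX1 only the Y641F libraries have a peak.

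Outside promoters the highest ranked Y641F-only region was the CDC14A intron printed above, with folds of 2.79 and 2.77 and no peak in any of the other 6 libraries. The ADAMTSL1 intron had 4.89 and 4.80 in Y641F and 7.36 and 3.72 in WT, with none in H689A/F667I. A region near LASP1, an actin-binding adaptor, at chr17:38867665-38867979 had 4.21 and 3.40 in Y641F and 2.21 and 2.31 in WT, again with none in H689A/F667I. PCDH9, a protocadherin, had an intronic peak with 3.59 and 3.82 in Y641F and 3.81 to 5.69 in the outside libraries. NLGN1, a synaptic neuroligin, had 5.10 and 4.76 over an exon and 3.62 to 5.08 outside. DACH1, a transcriptional cofactor of development, had 3.82 and 4.24 in an intron and was open in 3 of the 4 outside libraries. The remaining 4 were intergenic regions near ZNF184 and SPACA1, an intron of a long noncoding RNA whose nearest protein-coding gene is CITED2, and an intron of MMP16, a membrane-bound matrix metalloprotease, with Y641F folds of 4.19 to 5.32. Of these 10 regions, 3 were on chromosome 6 and 2 on chromosome 13.

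The highest ranked A677G-only promoter was that of HBB, the beta chain of adult haemoglobin, with folds of 6.05 and 7.29 and −log10 p of 9.98 and 15.4 over chr11:5226485-5227074. No peak was called there in the other 6 libraries. It stood at percentile 84.9 and 96.0 of the A677G lists. Globin genes have near-identical neighbours, so the assignment of its reads is uncertain, and peak lists do not show whether they came from the chromosomal gene. The other 9 highest ranked A677G-only promoters were open in all 4 WT and H689A/F667I libraries. LRPPRC, which binds mitochondrial messenger RNA, had 5.33 and 5.75 in A677G and 4.50 to 6.54 in the outside libraries. FGD4, an exchange factor for CDC42, had 5.19 and 5.22, with 4.32 to 6.02 outside. MMP1, the interstitial collagenase, had 5.46 and 5.40, with 3.99 to 5.67 outside. COL9A3, a chain of cartilage collagen IX, had 3.65 and 3.57 in A677G and 2.82 to 3.95 outside. Counted by gene COL9A3 was not A677G-only, since Y641F replicate 2 had another promoter peak, with a fold of 2.59. The other 5 were the promoters of C7orf50 with GPR146, PLEKHH3, AMDHD2 with ATP6V0C, SCRIB and PVRIG, with A677G folds of 3.10 to 4.58.

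Outside promoters the highest ranked A677G-only region, near SCAMP4 and shown in part above, had folds of 5.85 and 5.88 and 4.80 to 6.36 in the outside libraries. Others were a region near ZNF74 with 5.29 and 4.85, an intron of ERICH5 with 5.90 and 5.81, an intron of LHFPL2 with 4.69 and 4.76, an intron of CCDC200 with 5.89 and 5.87, and an intron of PANK1, a pantothenate kinase of coenzyme A synthesis, with 6.43 and 5.59. An intron of DAPK1, a death-associated kinase, had 4.35 and 4.49, and a region near CCDC137 had 4.64 and 4.03. All of these were open in the 4 outside libraries. The exception among the 10 was chr4:90838687-90839136 within CCSER1, which covers the processed pseudogene TMSB4XP8. It had folds of 5.74 and 5.72 in A677G and no peak in the other 6 libraries. The pseudogene is a copy of TMSB4X, which encodes thymosin beta 4, so, as for HBB, the origin of its reads is uncertain.

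Counted by gene, where a gene is open if a peak touches any of its start sites, 14135 of 19103 protein-coding genes had a promoter peak in at least 1 of the 4 libraries. The promoters of 19 genes (0.134%) were Y641F-only and those of 423 (2.99%) A677G-only. Fewer genes than promoter regions were called because a gene such as UBE2E3 had another start site with a peak in A677G. The 19 genes shared few functions. CAVIN2, a coat protein of caveolae, CD36, a scavenger receptor for fatty acids, F13B, the carrier subunit of clotting factor XIII, and SOX15, a transcription factor, had no peak in any WT or H689A/F667I library. CD36 had folds of 3.31 and 4.20 in Y641F, CAVIN2 3.06 and 3.12, F13B 3.06 and 3.08, and SOX15 2.16 and 2.2. Open in H689A/F667I but in no WT library were TAC3, a tachykinin precursor, CTSK, the protease cathepsin K, and LEFTY1, an inhibitor of nodal signalling, the last 2 in 1 library each. TAC3 had 2.80 and 2.62 in Y641F and 3.13 and 3.54 in H689A/F667I. The rest were ANKRD13B, BCHE, CD81, ENSG00000273734 with JSRP1, GIT1, GSDMC, RPL17 with RPL17-C18orf32, TFPI, TRIM54 and ZFTRAF1, of which all but GSDMC, TRIM54 and ZFTRAF1 were open in both WT libraries. Of the 19 genes, 9 (47.4%) were open in both WT libraries and 4 (21.1%) in both H689A/F667I libraries.

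Of the 423 genes with an A677G-only promoter, 384 (90.8%) were open in both WT libraries and 316 (74.7%) in both H689A/F667I libraries. In 7 genes no WT or H689A/F667I library had a peak. These were HBB, AIFM3, CDHR5, ENSG00000237378, ITGA10, ODF3 and UGT1A5. ITGA10, an integrin subunit that binds collagen, had folds of 3.91 and 3.40, and AIFM3, a mitochondrial flavoprotein, 2.88 and 2.70. CDHR5, a cadherin of the intestinal brush border, had 2.47 and 2.38. UGT1A5, a glucuronosyltransferase of a cluster with shared exons, had 3.16 and 3.82.

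Gene lists tied to Polycomb held small numbers of class genes. Over all genes with a peak, 2.99% were A677G-only and 0.134% Y641F-only. All 13 PRC2 genes measured and all 8 CDK inhibitors had promoter peaks in all 4 libraries, and none was in either class in either setting. Of 21 PRC1 genes, 20 had a peak in any library, 14 in all 4 and 0 were in a class. Of 28 HOX genes with a peak, 2 were A677G-only and 0 Y641F-only. HOXB6 had folds of 3.12 and 2.32 in A677G and 2.25 and 2.09 in WT, and HOXC11 2.64 and 2.70 in A677G and 2.78 and 2.79 in WT, both with no peak in H689A/F667I. Of 96 other homeobox genes 3 were A677G-only, which were CUX1, CUX2 and PAX7. PAX7, a factor of muscle and neural crest, had 3.53 and 3.93. Of 32 forkhead genes 2 were A677G-only, FOXC2 with 3.04 and 2.86 and FOXR1 with 3.85 and 3.59. Of 25 SOX, TBX and GATA genes 1 was Y641F-only, SOX15, and 1 A677G-only, TBX10, with 4.12 and 3.44. With top peaks 1.09% of all genes with a peak were Y641F-only and 1.61% A677G-only. In that setting 0 of 26 HOX and 0 of 27 forkhead genes were in either class. Of 89 other homeobox genes 1 was then Y641F-only and 2 A677G-only, and of 25 SOX, TBX and GATA genes 1 and 2. Among the 108 GOF targets listed by the study, partly chosen on these libraries, 97 were open in all 4 libraries, 1 was A677G-only (WNT16) and 0 Y641F-only. With top peaks 3 of 105 were Y641F-only (DCDC2, PTPRO and TENM4) and 0 A677G-only. With all peaks these 3 were open in all 4 libraries. The list is not independent evidence of a direction. WNT16 was also the 1 A677G-only gene among 23 genes named in the study's text, none of which was Y641F-only.

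In the lists of signalling and surface genes below, all calls with all peaks were A677G-only, against 2.99% A677G-only and 0.134% Y641F-only over all genes with a peak. Of 49 WNT pathway genes with a peak 4 were A677G-only, the ligands WNT4, WNT10A and WNT16 and the scaffold AXIN1, and all were open in the 4 outside libraries. WNT4 had folds of 3.30 and 3.34, WNT10A 2.77 and 3.06, WNT16 3.33 and 3.08, and AXIN1 3.16 and 3.24. Of 54 collagens and integrins 4 were A677G-only, COL17A1, COL22A1, COL6A1 and ITGA10, with folds of 3.01 to 3.94. Of 60 potassium channels 5 were A677G-only, among them the voltage-gated KCNG2, KCNH3 and KCNS2 and the inward rectifier KCNJ13. KCNG2 had 4.38 and 3.69, and KCNJ13 had 3.16 and 4.30. Of 61 axon guidance genes 2 were A677G-only, the receptor PLXNC1 with 3.44 and 3.05 and the ligand SLIT1 with 3.59 and 2.64. Of 191 ZNF genes of chromosome 19 that had a peak 5 were A677G-only, ZNF121, ZNF317, ZNF480, ZNF649 and ZNF780B, with folds of 3.06 to 4.44, and all were open in the 4 outside libraries. None of the 5 clustered protocadherins with a peak, none of 32 receptor tyrosine kinases, none of 72 OXPHOS subunits and none of 16 AP-1 genes was in either class. Among 46 histone genes with a peak H2AC19 was A677G-only with 3.45 and 3.35, and among 80 ribosomal protein genes RPS15 was A677G-only with 3.24 and 3.16 and RPL17 Y641F-only.

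With top peaks, 143 genes (1.09% of 13133) had a Y641F-only promoter and 212 (1.61%) an A677G-only promoter. Of the 143 genes, 116 had a weaker peak in both A677G libraries and 9 in neither. Of the 212 genes, 123 had a weaker peak in Y641F replicate 2 and 89 had none. The calls are therefore differences in rank, and for many Y641F-only genes the fold was alike in the lines. PTPRO, a receptor phosphatase, had 3.28 and 3.66 in Y641F and 3.21 and 3.67 in A677G, and DDR2, a collagen receptor kinase, had 2.76 and 3.01 in Y641F and 3.22 and 3.04 in A677G. KCNMA1, a calcium-activated channel, had 3.42 and 4.07 in Y641F and 3.53 and 3.71 in A677G.

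Other Y641F-only genes of the top peaks had higher folds in both Y641F libraries than in both A677G libraries. DKK2, an antagonist of WNT signalling, had 3.82 and 3.83 in Y641F and 3.05 and 2.66 in A677G. SOX2, a factor of neural progenitors and pluripotent cells, had 3.12 and 3.45 against 2.95 and 2.86. EPHA2, an ephrin receptor, had 3.30 and 3.05 against 2.86 and 2.74. The ribosomal protein genes RPL12 (2.90 and 3.06 against 2.58 and 2.42), RPL38 (3.22 and 3.00 against 2.56 and 2.85) and RPS27 (2.91 and 3.30 against 2.53 and 2.45) followed the same order. DCDC2, a microtubule-binding protein, had 3.35 and 4.13 against 3.03 and 2.73, and MAF 3.14 and 2.85 against 2.78 and 2.58. FLT1, PRRX1 and TENM4 also had higher folds in both Y641F libraries, while the values of DDR1, H3C7 and H4C11 overlapped between the lines.

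Among the A677G-only members with top peaks, 8 had no peak in either Y641F library with all peaks and were named above (AXIN1, KCNH3, PAX7, RPS15, TBX10, WNT4, ZNF121 and ZNF780B). The others had a peak in Y641F replicate 2 alone. The WNT antagonists DKK3 and NOTUM had folds of 4.97 and 3.86, and 3.41 and 3.76, in A677G, and 3.35 and 3.16 in Y641F replicate 2. The receptor kinase TYRO3 had 4.23 and 3.44 in A677G against 3.24 in Y641F replicate 2. TBX1, a factor of pharyngeal development, had 2.86 and 3.24 against 2.86, and the respiratory chain genes ATP5F1D and CYC1 had 3.31 and 3.21 against 2.69, and 3.07 and 2.91 against 2.54. EPHA10, KCNH6, KCNK3, KCNN4, PBX2, RPS16 and COL9A3 completed this group.

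The classes were spread differently over the chromosomes. Of 2333 regions on chromosome 13, 56 were Y641F-only (2.40%, Wilson 1.85 to 3.10) and 96 A677G-only (4.11%, 3.38 to 5.00). This was the highest Y641F-only and the lowest A677G-only share of any autosome. Next in the Y641F-only share were chromosome 18 with 1.44% (0.926 to 2.24), chromosome 6 with 63 regions or 1.37% (1.07 to 1.75) and chromosome 4 with 1.08% (0.771 to 1.5), whose intervals overlapped one another. The lowest Y641F-only shares were 0.229% on chromosome 14, 0.268% on chromosome 16 and 0.271% on chromosome 19. A677G-only shares were highest on chromosome 19 with 10.6% (9.43 to 12) and chromosome 22 with 9.98% (8.45 to 11.7), followed by chromosomes 16 and 17 with 9.45% and 9.08%. For each 100 A677G-only regions there were 58.3 Y641F-only regions on chromosome 13 and 2.54 on chromosome 19. With top peaks chromosome 13 again had the highest Y641F-only share at 3.70% (2.82 to 4.85), with an interval that overlapped those of most other autosomes, and the lowest A677G-only share at 2.00% (1.38 to 2.89). Chromosome 22 had the lowest Y641F-only share at 0.774% and chromosome 19 the highest A677G-only share at 7.26%, and there were 185 Y641F-only regions for each 100 A677G-only regions on chromosome 13 against 17.9 on chromosome 19 and 11.3 on chromosome 22.

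**Figure D5:**
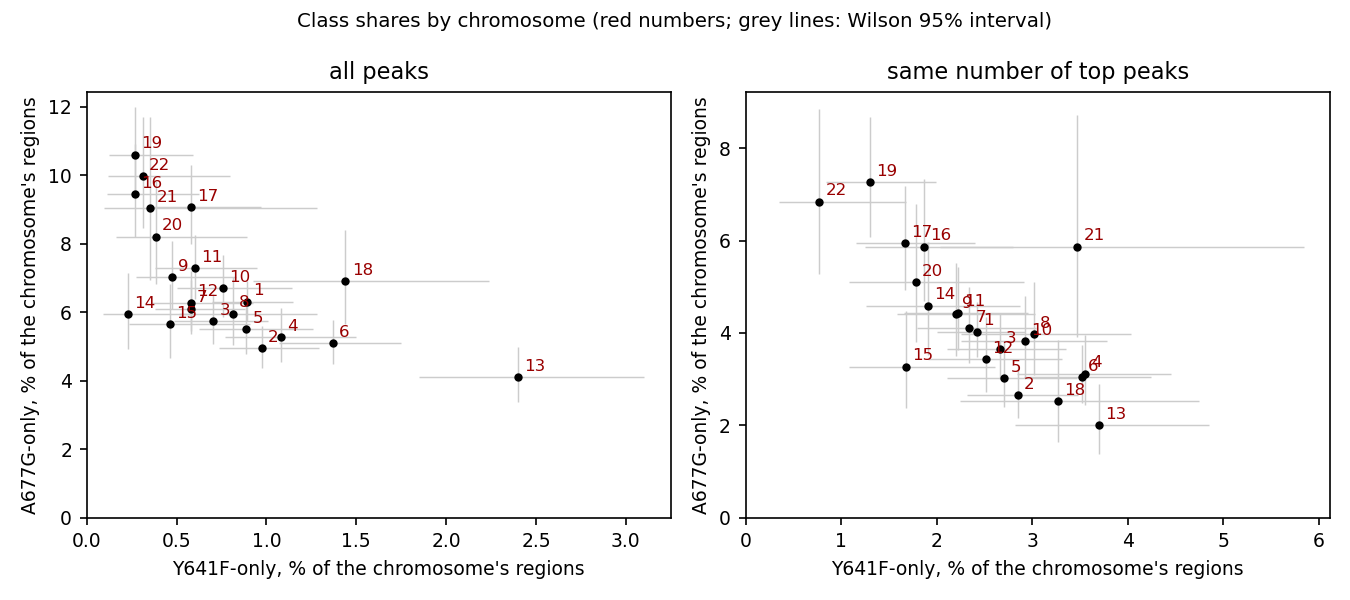
Y641F-only share (horizontal axis) against A677G-only share (vertical axis) of the merged regions of each autosome, in percent with Wilson 95% intervals, for all peaks (left) and top peaks (right). Chromosome 13 lies at the lower right in both panels (2.40% and 4.11% left, 3.70% and 2.00% right), and chromosomes 19 and 22 lie at the upper left.

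Within chromosomes the classes gathered in some windows of 5 Mb, of which 541 held at least 20 regions. The window with the highest Y641F-only share was chr4:65000001-70000000, with 3 of 46 regions (6.52%) and 0 A677G-only regions, and it led with top peaks too, at 5 of 28 regions (17.9%). The window with the most regions among the 5 highest was chr13:65000001-70000000, which holds the PCDH9 region, with 16 Y641F-only of 315 regions (5.08%) and 10 A677G-only. The windows chr5:105000001-110000000, chr6:95000001-100000000 and chr2:90000001-95000000 followed with 5.56%, 5.19% and 5.00%, on 4, 4 and 1 regions. The highest A677G-only shares were 7 of 28 regions (25%) in chr18:70000001-75000000, 7 of 32 (21.9%) in chr10:105000001-110000000, 13 of 71 (18.3%) in chr10:125000001-130000000, 12 of 71 (16.9%) in chr14:105000001-107043718 and 55 of 333 (16.5%) in chr19:1-5000000. The window at the start of chromosome 19 holds the region near SCAMP4 and RPS15. The first 4 of these 5 windows had 0 Y641F-only regions and the window on chromosome 19 had 1. With top peaks chr19:1-5000000 had 30 of 218 regions A677G-only (13.8%) and 2 windows at the end of chromosome 22 had 20% and 15.8%. Windows led by Y641F-only regions with top peaks included chr3:175000001-180000000 with 7 of 50 (14.0%), chr18:40000001-45000000 with 3 of 23, chr9:80000001-85000000 with 5 of 41 and chr2:140000001-145000000 with 6 of 56. The median window had 0.412% Y641F-only and 5.88% A677G-only regions with all peaks. No Y641F-only region was found in 263 of the 541 windows, and no A677G-only region in 10.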

How the data were processed

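ATAC-seq was performed in HEK293T lines carrying EZH2 WT, Y641F, A677G or H689A/F667I, with 2 libraries per line that the study calls independent biological replicates. The authors trimmed, aligned to GRCh38/hg38 and deduplicated the reads and called broad peaks per library. The submitters' processing notes name Trim Galore 0.6.5, BWA 0.7.17, MACS2 2.2.7.1 and deepTools 3.5.1. The deposited lists give, per peak, a fold (the ratio of pileup to local background), a −log10 p, a −log10 q and a score, which was not used. The shift for the transposase, the mitochondrial filter and the broad peak threshold are not given in the sources used here.

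Values belong to single peaks. The study tested read counts, which are not analysed here, and overlaps of peaks take their place. Peaks of the 4 GOF libraries sharing at least 1 bp were merged, on chromosomes 1 to 22, with Python 3.11.15, pandas 2.3.3 and pysam 0.24.0. Places used GENCODE 44, in the order promoter, exon, intron, intergenic. Percentiles rank −log10 p within a list. Exact permutation over the 6 assignments of libraries tested the number of peaks and the length they cover. Shares have Wilson 95% intervals. No test was run over regions. The class rule was run on simulated lists with planted regions, all made from the Y641F replicate 1 list. This run checked the code only, as it held neither missed peaks nor the unequal list lengths of the real libraries.

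Named were the 10 promoters and 10 other regions of each class with the highest lower-of-2 percentile, the 10 promoters of each class with the largest percentile gap to the other line among top peaks, members of 20 gene lists found in a class, and the 5 windows of 5 Mb (at least 20 regions) and the chromosomes with extreme shares. Members and lists were chosen with earlier results of these data known. CAVIN2 and the other genes of the 19, and the 7 without a peak in WT or H689A/F667I, were named after their values were seen. Alternatives were top peaks, a −log10 q of at least 5, merging under 1 kb, a cover of 50%, chromosome X, a promoter of 2.5 kb, a pairing of replicates and leaving out each library. Comparisons of 1 library per line were chosen after seeing the data. Some items are not reported here.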

Additional observations from a re-analysis of the deposited data

Results flagged for a closer look

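Among 26 measures of the peak lists (median GC, width and fold, promoter share and the share of peaks on each autosome), 4 put both Y641F libraries on one side of both WT libraries and both A677G libraries on the other. This difference was not tested. The Y641F libraries had 8.14% and 7.75% of their peaks on chromosome 6, the A677G libraries 7.01% and 7.07% and the WT libraries, on average, 7.15%, a difference of means of 0.901 percentage points between the mutants. On chromosome 13 the Y641F libraries had 3.71% and 3.57%, A677G 3.07% and 3.16%, and WT 3.54% and 3.47%, a difference of 0.531. Chromosome 2 held 8.24% and 8.06%, 7.72% and 7.77%, and 7.92% and 7.96% in the same order, a difference of 0.406. On chromosome 22 the Y641F libraries had 1.65% and 2.02%, A677G 2.33% and 2.19%, and WT 2.08% and 2.05%, a difference of 0.424 in the other direction. These shares come from the same peaks as the chromosome shares of the classes.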

How the results depend on the processing

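Of 108 recomputed values, 73 moved. The other 35 stayed within 1.5 times a count, within the interval of a share or on the same side of a test. A reversal was looked for only in the log2 ratios of peak number and covered length, where 0 were found. Changes in the order of the 2 classes, such as those given above, were not counted. With top peaks the classes held 1008 Y641F-only and 1569 A677G-only regions, and with equal numbers on chromosomes 1 to 22 they held 1008 and 1558. With a −log10 q of at least 5 they held 112 and 1429. Genes with a Y641F-only promoter numbered 143 with top peaks and 44 with the stricter q, and those with an A677G-only promoter 212 and 754. Promoter shares of Y641F-only regions were 21.9% with top peaks, 37.5% with the stricter q and 16.0% with promoters of 2.5 kb, and those of A677G-only regions 21.2%, 52.7% and 25.8%. Shares open in both WT libraries were 17.0% with top peaks and 71.4% with the stricter q for Y641F-only regions, and 42.2% and 86.6% for A677G-only regions. Counting at least 1 WT library gave 68.3% and 93.3%. With 1 library of each line these shares were 34.5%, 24.6%, 42.8% and 33.9% for Y641F-only and 67.7%, 62.1%, 53.7% and 50% for A677G-only regions.

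Leaving out each library in turn gave 842 to 6172 Y641F-only and 4741 to 15377 A677G-only regions, 34 to 168 and 513 to 1512 genes, promoter shares of 8.71% to 13.0% and 13.3% to 22.9%, and shares open in both WT libraries of 16.7% to 69.6% and 47.3% to 89.4%. The log2 ratio of peak number was -0.67 to -0.20 and that of covered length -0.70 to -0.14. Replicate numbers did not pair the libraries (r = -0.014 between the lines over 60865 regions). With replicate number as a block the log2 ratios were -0.44 and -0.42 with exact p = 0.500, the smallest 2 pairs allow. The causes of these shifts were not tested. Depth is unknown, 2 libraries per line limit every comparison, and the line, its clone and its peak yield cannot be told apart.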

Other observations

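Further gene groups were counted after the values were seen, so these counts are descriptions. Over all genes with a promoter peak, 2.99% were A677G-only and 0.134% Y641F-only with all peaks, and 1.61% and 1.09% with top peaks. Of 31 interferon response genes with a promoter peak, 6 were A677G-only and 0 Y641F-only with all peaks. They were the sensors IFI16 and IFIH1, the effectors IFIT3 and OAS3, the lysosomal reductase IFI30 and the factor IRF5. IFIT3 had folds of 4.05 and 5.58 in A677G and 5.09 and 5.39 in WT, with no peak in Y641F. IFIH1 had 3.32 and 4.32 in A677G and 5.46 and 4.67 in WT, and IFI30 had 3.69 and 3.61 in A677G and 3.42 and 3.55 in WT. All 6 were open in both WT libraries. With top peaks 3 of 27 were A677G-only, IFIT3, IFI30 and DHX58. Of 16 cadherins with a peak, CDH6, CDH8, CDH11 and CDH20 were A677G-only with all peaks. CDH6 had 3.36 and 4.20 and CDH8 3.93 and 3.73. With top peaks 0 of 12 were A677G-only and 1 was Y641F-only, CDH1. It had 3.35 and 4.41 in Y641F, no peak in A677G replicate 1 and a lower ranked peak of 3.12 in A677G replicate 2.

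Of 12 genes of VEGF and angiopoietin signalling with a peak, none was in either class with all peaks, and 10 were open in all 4 libraries. With top peaks 5 of 11 were Y641F-only, the ligands VEGFC and ANGPT1, the receptor FLT1, the phosphatase PTPRB and VASH1. VEGFC had folds of 4.25 and 4.20 in Y641F and 3.40 and 3.24 in A677G. ANGPT1 had 3.60 and 4.70 in Y641F, no peak in A677G replicate 1 and 3.42 in A677G replicate 2. PTPRB had 3.69 and 3.67 in Y641F and 3.67 and 3.96 in A677G, so its folds overlapped between the lines. Of 5 globin genes with a peak, HBB and HBQ1 were A677G-only with all peaks. With top peaks these 2 of 4 were A677G-only and the other 2, CYGB and HBM, Y641F-only. Both had weaker ranked peaks in A677G. CYGB had 3.15 and 3.68 in Y641F, 3.16 in A677G replicate 1 and no peak in A677G replicate 2. HBM had 3.19 and 3.71 in Y641F and 3.13 and 2.94 in A677G. HBQ1, a globin of the alpha cluster, had 3.10 and 3.76 in A677G and 2.58 to 2.95 in the WT and H689A/F667I libraries, where HBB had no peak. Of 224 solute carriers with a peak, 9 were A677G-only and 0 Y641F-only with all peaks, a share near that of all genes. SLC38A4, an amino acid transporter, had folds of 5.13 and 5.34 in A677G and 6.15 to 7.24 in the WT and H689A/F667I libraries.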
